A study of Caenorhabditis elegans with 6 samples.

Results

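Genes of the muscle sarcomere were followed across whole Caenorhabditis elegans animals of 3 strains kept with or without octopamine. The set held 43 genes, named by their symbols: myosins and other thick filament proteins, actins, troponins and other thin filament proteins, the giant and immunoglobulin-domain proteins of the filaments, the integrin attachments that hold the sarcomere to the membrane, and the proteins of the calcium store. A gene was measured by the probe set that named it alone in the platform annotation. Of the 43 genes, 41 had such a probe set, and all 41 were among the 10251 genes bright enough to be analysed, out of 17118 genes with a probe set of their own. The actins act-1 and act-2 were represented only on probe sets shared with other actins and are described with them.

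The study used 6 single-colour Affymetrix arrays, 1 for each of 6 groups. N2 served as the wild type. One mutant strain carried daf-16(mu86), and the other, called the receptor mutant here, carried 2 alleles, ser-3(ok2007);ser-6(tm2146); both were in the N2 background. daf-16 encodes the FOXO transcription factor of the insulin pathway, and ser-3 and ser-6 encode octopamine receptors. Animals of each strain grew for 3 days and then spent 2 days on plates that held either no octopamine or 20 mg/mL of it. RNA came from the whole body, so every muscle of the animal contributed, and fewer cells of a type and less RNA per cell cannot be told apart in any value below. The sample labels give the age as day 4 of adulthood, whereas the extraction protocol speaks of animals 5 days old.

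Octopamine is the invertebrate counterpart of noradrenaline and acts through G protein-coupled receptors. The sarcomere is the contractile unit of muscle: myosin heads on thick filaments pull on actin in thin filaments when calcium, released from an internal store, binds troponin C and moves troponin and tropomyosin off the myosin sites. In nematodes the filaments of body wall muscle are anchored to the cell membrane, and through it to the basement membrane and epidermis, by integrin complexes at dense bodies and M-lines. Body wall muscle moves the animal, and the pharynx, a separate muscular pump with its own myosin and troponin isoforms, takes in food.

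Signals are linear intensities after each array was scaled to a common median, and ratios and changes are on the log2 scale. A ratio between a pair of arrays has no replicate check. The only test came from an additive model over all 6 arrays, fitted with limma, which gives an octopamine change averaged over the 3 strains and a change of each mutant from N2 averaged over both treatments. A gene was called at a Benjamini-Hochberg adjusted p under 0.05 over all 10251 genes. The median signal of an array was 23.8 to 25.96 as deposited. Markers of other tissues were detected as whole animals would give them: 7 of 8 listed genes of intestine, 7 of 8 of epidermis, 7 of 8 of neurons and 8 of 8 of germline passed the brightness limit, and of sperm and embryo markers 4 of 8 each. The log2 ratios of daf-16 mutant to N2 for the 4 daf-16 probe sets were -2.76 to -0.37 without octopamine and -2.78 to -0.45 with it. The ser-3 probe set, of signal 17.0 to 30.5, had ratios of receptor mutant to N2 of -0.37 and -0.57, and ser-6 was not analysed here. The ubiquitin control, whose ratio of 3′ to 5′ signal rises as RNA is degraded, stood at 5.32 to 5.48 on the 3 arrays without octopamine and 5.74 to 6.23 on the 3 with it, the highest being the receptor mutant's. The same ratio of the Gapdh control was 1.23 and 1.05 without and with octopamine for N2, 1.24 and 1.03 for daf-16 and 0.919 and 1.09 for the receptor mutant. That of the actin control was 2.03 and 1.79, 2.14 and 2.00, and 1.69 and 1.96, so neither separated treated from untreated arrays. The part of these ratios in the octopamine results was not tested.

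With octopamine, 5 of the 41 muscle genes rose and 0 fell. The 5 were the myosin heavy chains myo-3 and myo-1, the troponin T gene mup-2, the giant protein gene unc-89 and the actin-bundling protein gene unc-87, with changes of 0.37 to 0.73. Among all genes, 7.37% rose and 14.7% fell, so the share of muscle genes that rose, 12.2%, was read against 7.37%. These shares of all genes became 9.33% and 9.79% on the values as deposited and 14.3% and 6.82% when arrays were centred on the hybridization controls. The 5 became 1 without the N2 pair of arrays, a share of 2.44% of the muscle genes where 3.14% of all genes rose. They became 2 of 41 without the daf-16 pair, where 5.66% of all genes rose. Without the receptor mutant pair they became 8 of 41, where 8.68% of all genes rose. Without probe sets of a shared suffix 1 of 22 rose, where 6.67% of all genes did. At an unadjusted p under 0.05 in the same limma fit, 12 muscle genes (29.3%) were higher and 1 (2.44%) lower, against 12.2% and 24.5% of all genes. The median fitted change was 0.12 for the muscle genes and -0.06 for all genes. A positive change was found for 28 of 41 muscle genes and for 4061 of all 10251 genes. The ratio was above 0 in all 3 strains for 19 muscle genes (46.3%), against 20.0% of all genes, and below 0 in all 3 strains for 5 (12.2%), against 37.6%. These counts depend on how arrays are scaled: 28 positive changes became 32 on the values as deposited and 36 with the latter centring, which moved the median of all genes from -0.06 to 0.08. Relative to the median of all genes, the muscle median was 0.19 higher. These scalings shift all genes of an array by the same amount, so this difference could not change between them.

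**Figure D1:**
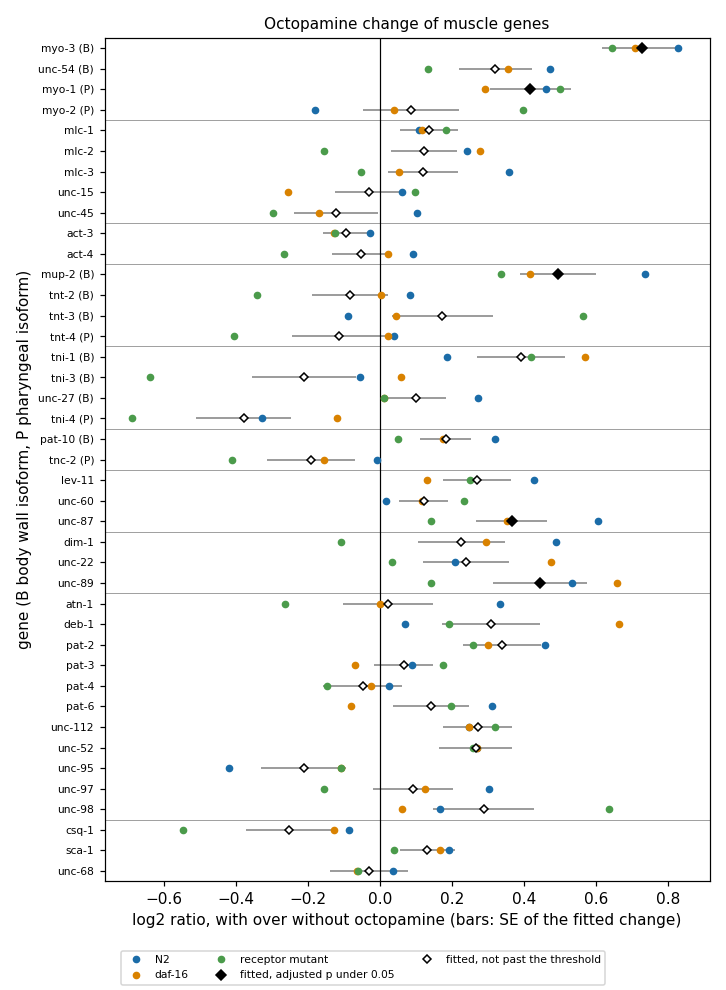
Octopamine log2 ratio of each of the 41 muscle genes on the horizontal axis, 1 gene per line, grouped by role. Circles are the 3 strains, diamonds the fitted change with its SE as a bar, filled where the adjusted p was under 0.05. The 3 circles of myo-3 lie at 0.65 to 0.83, and its lowest ratio is above the lowest ratio of each other gene.

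By strain, the median octopamine ratio of the muscle genes was 0.19 for N2, 0.06 for daf-16 and 0.05 for the receptor mutant, while all genes had -0.06, -0.07 and -0.07. Muscle genes at least 1.5-fold higher with octopamine were myo-3, mup-2 and unc-87 in N2 (3 genes), myo-3, deb-1 and unc-89 in daf-16 (3 genes), and myo-3 and unc-98 in the receptor mutant (2 genes). The share of all genes this much higher was 4.40% for N2, 2.88% for daf-16 and 4.49% for the receptor mutant. No muscle gene was 1.5-fold lower in N2 or daf-16, where 5.52% and 4.68% of all genes were. In the receptor mutant 2 were (tni-3 and tni-4), where 8.49% of all genes were. The ratio of tni-3 there was -0.64 on its brightest probe set and 0.185 on its other, dimmer one. Without probe sets of a shared suffix, which left 22 muscle genes, the receptor mutant's median was -0.12. Whether the strains differ in their response cannot be tested with 1 array per group.

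The myosin heavy chains form the motor of the thick filament, and all 4 had a positive fitted change, with a median of 0.37. myo-3, which encodes the body wall myosin at the centre of the thick filament, had signals of 37.9 and 67.4 without and with octopamine for N2, 41.5 and 67.8 for daf-16 and 33.7 and 52.8 for the receptor mutant. The 3 arrays with octopamine did not overlap the 3 without it. Its change was 0.73 ± 0.11 (SE, adjusted p = 0.00411), and it was called under all 11 alternative settings that gave it a value. myo-1, a pharyngeal myosin, had 38.3 and 52.6 for N2, 44.8 and 54.8 for daf-16 and 31.8 and 44.9 for the receptor mutant. Its 3 treated arrays were above its 3 untreated ones by a narrow margin, 44.9 against 44.8. Its change was 0.42 ± 0.11 (SE, adjusted p = 0.0333). That call was lost without the N2 pair of arrays (adjusted p = 0.153), without the daf-16 pair (0.0637) or without the receptor pair (0.0529), and with the mean of its 2 probe sets (0.304).

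unc-54, the major body wall myosin, had signals of 185 and 257 for N2, 222 and 284 for daf-16 and 156 and 171 for the receptor mutant. It was higher with octopamine in each strain, but the treated receptor mutant array lay below both untreated arrays of the other strains. Its change of 0.32 ± 0.10 (SE) missed the threshold (adjusted p = 0.0545) and passed it in 8 of 12 alternative settings. myo-2, the other pharyngeal myosin, was dim, with 20.7 and 18.3 for N2, 24.0 and 24.7 for daf-16 and 18.4 and 24.2 for the receptor mutant. Its ratios ran in different directions, from -0.18 in N2 to 0.40 in the receptor mutant.

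Of the other thick filament genes, the regulatory light chains mlc-1 and mlc-2, the essential light chain mlc-3, paramyosin (unc-15), which makes the filament core, and the myosin chaperone unc-45 had fitted octopamine changes of -0.12 to 0.14, and 0 of 5 were called. mlc-3 went from 483 to 619 in N2 and from 381 to 367 in the receptor mutant. Its other probe set, nearly as bright, rose in both, from 483 to 622.5 and from 301 to 337. On the brightest probe sets unc-15 was the only one of the 5 with its lowest ratio in daf-16, -0.25, where its signal went from 679 to 569. Its other probe sets had ratios of -0.12 and -0.02 in daf-16. Their lowest ratios were in the receptor mutant, -0.41 and -0.35, where the brightest probe set had 0.10.

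**Figure D2:**
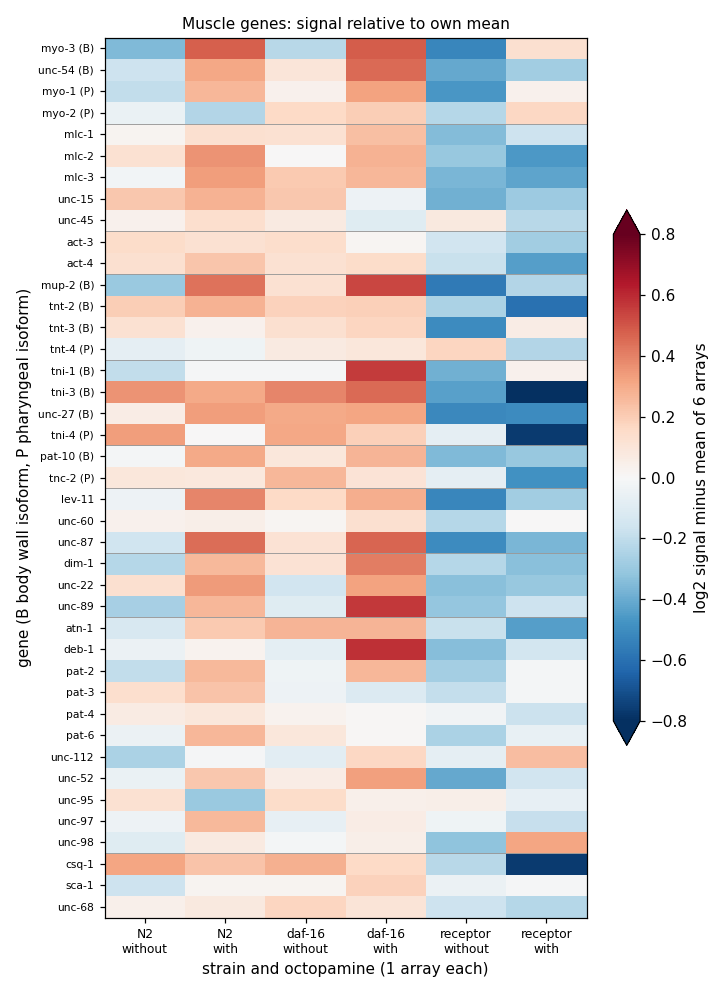
Signal of the 41 muscle genes (lines, grouped by role) on the 6 arrays (columns), as log2 signal minus each gene's own mean over the 6 arrays; red is above and blue below the mean, and the colour scale is cut at -0.8 and 0.8. The 2 receptor mutant columns are mostly blue: 38 of 41 genes without octopamine and 33 with it lie at or below their mean.

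Among the giant and immunoglobulin-domain proteins, all 3 had positive fitted octopamine changes, with a median of 0.24. unc-89, an obscurin-like protein of the M-line, had signals of 64.0 and 92.6 for N2, 72.0 and 114 for daf-16 and 62.2 and 68.6 for the receptor mutant. The treated receptor mutant array, at 68.6, lay below the untreated daf-16 array, so treated and untreated arrays overlapped. Its change was 0.44 ± 0.13 (SE, adjusted p = 0.0423), a call lost without the N2 pair (adjusted p = 0.177), without the daf-16 pair (0.225) and with the mean of its probe sets (0.0937). Its other probe sets past the brightness limit had mean octopamine ratios of 0.33, 0.49 and -0.03. unc-22, the twitchin kinase of the thick filament, was close to the brightness limit of 15.5 (signals of 13.3 to 21.2) and had a change of 0.24 ± 0.12. dim-1, an immunoglobulin-domain protein that stabilises muscle structure, had octopamine ratios of 0.49 for N2, 0.30 for daf-16 and -0.11 for the receptor mutant. Its other probe set had 0.43, 0.35 and 0.14.

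Of the thin filament genes outside actin and troponin, unc-87, which encodes a calponin-like protein that bundles actin, had signals of 515 and 783 for N2, 622 and 794 for daf-16 and 405 and 446 for the receptor mutant. Both receptor mutant arrays lay below all 4 others. Its octopamine change was 0.37 ± 0.10 (SE, adjusted p = 0.0334), a call lost without the N2 pair (adjusted p = 0.208), without the daf-16 pair (0.0582) and without the mean-variance trend (0.0631). Tropomyosin (lev-11), which lies along actin and blocks myosin at rest, had a change of 0.27 ± 0.10 (adjusted p = 0.0769). The cofilin gene unc-60, whose product severs actin filaments, had a change of 0.12 from its brightest probe set, while other probe sets of the gene had mean ratios of 0.53, -0.04, -0.07 and -0.27.

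The actins, which form the thin filament itself, had no octopamine call. act-3 had signals of 2397 and 2352 for N2, 2388 and 2185 for daf-16 and 1946 and 1784 for the receptor mutant, with a change of -0.09 ± 0.06. act-4 had 2674 and 2848, 2662 and 2701, and 2160 and 1796, with a change of -0.05 ± 0.08. Both fitted changes were positive when arrays were centred on hybridization controls or quantile normalised. act-1, act-2 and act-3 lie next to each other in the gene order of assembly WBcel235, and the 2 probe sets that named these 3 together had mean octopamine ratios of -0.10 and -0.02. The actins are near-identical copies, so which of them a probe set measured is uncertain. The neighbouring light chain genes mlc-1 and mlc-2 are likewise near-identical, and a probe set that named both had a mean ratio of 0.14.

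The troponins, which make the thin filament answer to calcium, moved in no common direction with octopamine: 5 of 10 had positive changes, with a median of 0.01, and the medians of the troponin I and troponin C genes changed sign between scalings. mup-2, a troponin T gene of body wall muscle, was the member called. Its signals were 193 and 320 for N2, 257 and 343 for daf-16 and 160 and 202 for the receptor mutant. It was higher with octopamine within each strain, and the treated receptor mutant array was below the untreated daf-16 one. Its change was 0.50 ± 0.11 (SE, adjusted p = 0.0139), a call lost without the N2 pair (adjusted p = 0.0952) and kept in 11 of 12 alternative settings.

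Attachment genes, which link the sarcomere to the membrane, had positive fitted octopamine changes in 9 of 11 cases, with a median of 0.14, and 0 of 11 were called. The alpha integrin pat-2 had a change of 0.34 ± 0.11 (adjusted p = 0.0565), with signals of 17.3 and 23.7 for N2, 19.3 and 23.8 for daf-16 and 16.4 and 19.6 for the receptor mutant. Its 3 treated arrays were all above its 3 untreated ones. The kindlin gene unc-112, whose product activates integrin, had ratios of 0.25, 0.25 and 0.32 (change 0.27, adjusted p = 0.0762). The perlecan gene unc-52, a basement membrane proteoglycan to which the integrins attach, had 0.27, 0.27 and 0.26 (adjusted p = 0.0965). On these probe sets, the brightest of each gene, the ratios of unc-112 and unc-52 spread by less than 0.10 between strains. Other bright probe sets of both genes varied more. That of unc-112 had 0.18 for N2, 0.52 for daf-16 and -0.16 for the receptor mutant. Those of unc-52 had 0.15, 0.58 and -0.72, and -0.14, 0.11 and -0.05. The vinculin gene deb-1 had its largest ratio in daf-16, 0.66 against 0.07 in N2 and 0.19 in the receptor mutant. Its other probe set had 0.60 in daf-16, 0.18 in N2 and 0.49 in the receptor mutant. The gene unc-98, of a zinc finger protein of the M-line and dense body, had 0.64 in the receptor mutant against 0.17 in N2 and 0.06 in daf-16. The beta integrin pat-3, the integrin-linked kinase pat-4, the parvin gene pat-6, the alpha-actinin gene atn-1 and the LIM-domain genes unc-95 and unc-97 had fitted changes of -0.21 to 0.14.

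The calcium store genes had no octopamine call. The calcium pump sca-1 had a change of 0.13, the ryanodine receptor unc-68, through which the store releases calcium, -0.03, and calsequestrin csq-1, which binds calcium inside the store, -0.25.

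Body wall and pharyngeal isoforms of 4 protein families were then set side by side, 9 genes of body wall and 5 of the pharynx. Within each family the mean octopamine ratio of the pharyngeal isoforms was subtracted from that of the body wall isoforms. The mean difference over the 4 families was 0.38 for N2, 0.29 for daf-16 and 0.40 for the receptor mutant, and 11 of the 12 family differences were above 0. The exception was myosin heavy chain in the receptor mutant, at -0.06, against 0.51 in N2 and 0.37 in daf-16. Troponin T gave 0.20, 0.13 and 0.59, troponin I 0.46, 0.33 and 0.62, and troponin C 0.33, 0.33 and 0.46. These differences are within an array and so do not move with its scaling by a constant. The components did differ by strain: the body wall mean was 0.34 for N2, 0.27 for daf-16 and 0.14 for the receptor mutant, and the pharyngeal mean -0.04, -0.02 and -0.26. Within troponin T the body wall genes were uneven. In N2 mup-2 had 0.73, tnt-2 0.08 and tnt-3 -0.09. In the receptor mutant they had 0.33, -0.34 and 0.56, with tnt-3 close to the brightness limit, against -0.40 for tnt-4, the only pharyngeal one. No test of the family differences was made.

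**Figure D3:**
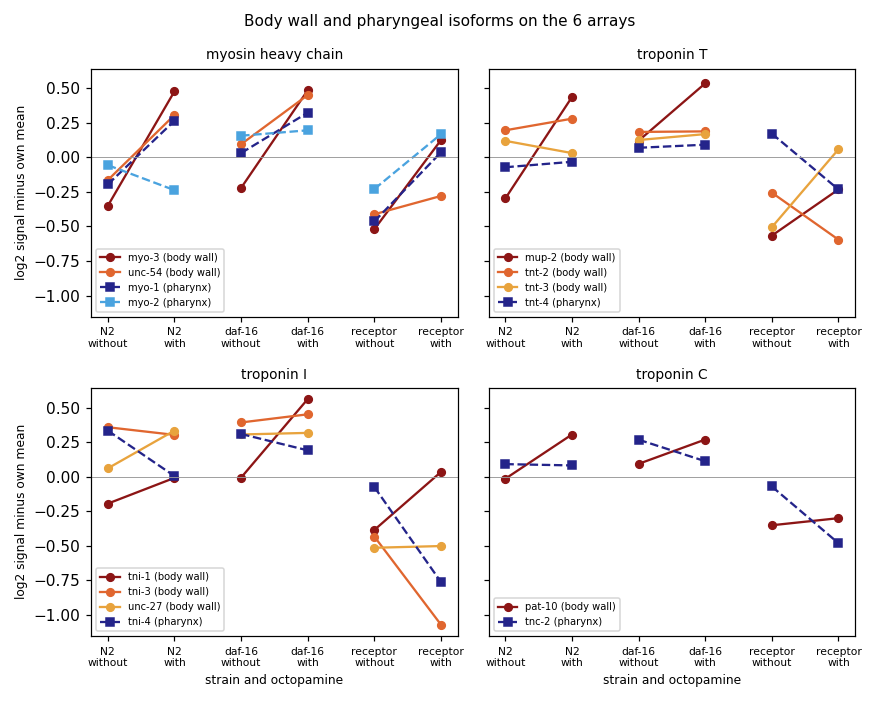
Log2 signal minus own mean over the 6 arrays (vertical axis) for body wall isoforms (circles, solid lines) and pharyngeal isoforms (squares, dashed lines) of 4 families, with lines joining the arrays of 1 strain without and with octopamine. In troponin I the pharyngeal tni-4 is lower with octopamine in each strain, with ratios of -0.12 to -0.69, and the body wall tni-1 is higher in each, with ratios of 0.19 to 0.57.

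The isoforms of a family also differed among themselves. In troponin I, the inhibitory subunit, the body wall gene tni-1 had signals of 42.1 and 47.9 for N2, 48.0 and 71.2 for daf-16 and 36.9 and 49.4 for the receptor mutant, with a change of 0.39 ± 0.12 (adjusted p = 0.0517). The pharyngeal gene tni-4 had 98.6 and 78.5, 96.9 and 89.3, and 74.3 and 46.1, with a change of -0.38 ± 0.13 (adjusted p = 0.0752). tni-4 was thus lower with octopamine in each strain. The body wall gene tni-3 had 157 and 151, 161 and 167, and 90.5 and 58.2, and unc-27, also of body wall, had 670 and 810, 794 and 800, and 450 and 453. In tni-3 and unc-27 the receptor mutant arrays were the lowest, whatever the treatment.

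In troponin T, the subunit that binds tropomyosin, the body wall gene tnt-2 had signals of 330 and 350 for N2, 327 and 328 for daf-16 and 241 and 191 for the receptor mutant. The body wall gene tnt-3 was close to the brightness limit, with 16.8 and 15.8, 16.9 and 17.4, and 10.9 and 16.1. The pharyngeal gene tnt-4 had 33.2 and 34.1, 36.6 and 37.2, and 39.3 and 29.7. Outside the receptor mutant the octopamine ratios of these 3 genes lay between -0.09 and 0.08, while mup-2 had 0.73 and 0.42. In troponin C, the subunit that binds calcium, the body wall gene pat-10 had 2683 and 3350, 2891 and 3266, and 2124 and 2201, and the pharyngeal gene tnc-2 had 43.4 and 43.1, 49.01 and 44.0, and 38.8 and 29.2. pat-10 had ratios of 0.32, 0.18 and 0.05 and tnc-2 of -0.01, -0.16 and -0.41, lower than pat-10 in each strain.

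Against N2, 10 of the 41 muscle genes fell in the receptor mutant and 0 rose. They were the troponin genes tni-3, unc-27, tnt-2 and pat-10, the calsequestrin gene csq-1, the light chain gene mlc-2, paramyosin (unc-15), unc-87, tropomyosin (lev-11) and the actin gene act-4, with changes of -0.47 to -1.08. The share that fell was 24.4%, where 2.22% of all genes fell and 0.400% rose. On the values as deposited these shares were 1.19% and 0.458%, and with centring on the hybridization controls 3.32% and 2.04%. At an unadjusted p under 0.05 in the limma fit, 21 muscle genes (51.2%) were lower and 0 higher, against 16% and 5.55% of all genes. The median fitted change was -0.30 for the muscle genes and -0.06 for all genes. A negative change was found for 35 of 41 muscle genes and for 6268 of all 10251 genes. The count of calls depended on the processing: it was 3 on the values as deposited, 2 after quantile normalization and 0 in limma without the mean-variance trend. The 35 negative changes were 35 of 41 on the deposited values, 34 of 41 with arrays centred on the analysed genes, 35 of 41 with centring on the hybridization controls and 33 of 40 after quantile normalization.

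**Figure D4:**
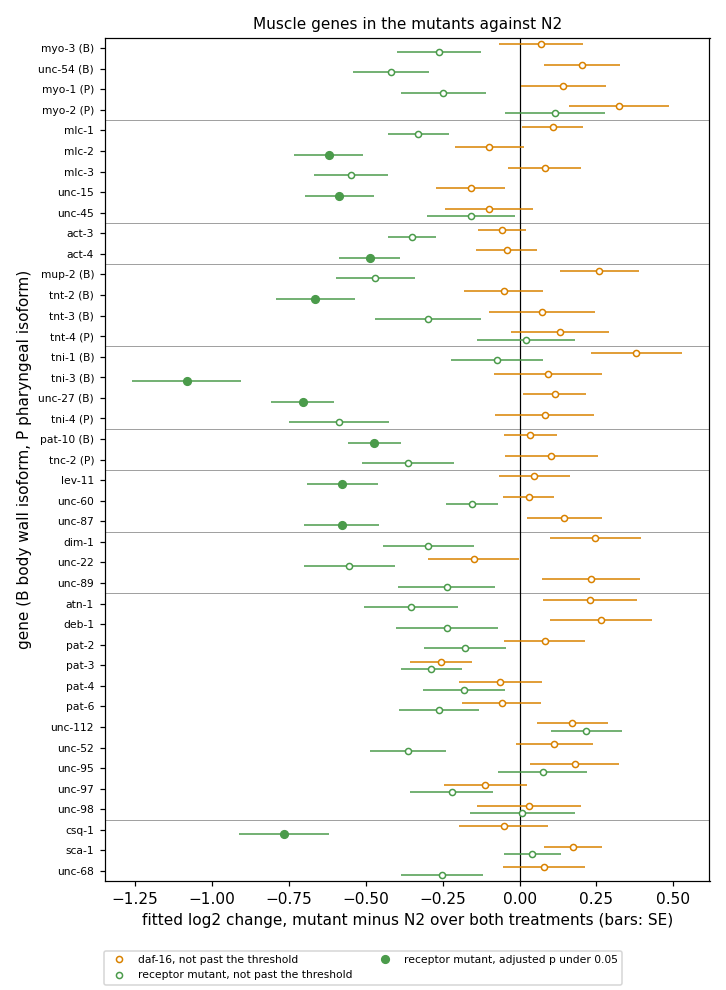
Fitted log2 change of each muscle gene of daf-16 (orange) and the receptor mutant (green) from N2, averaged over both treatments, with the SE as a bar and filled points where the adjusted p was under 0.05. The green points of 35 of 41 genes lie left of 0, the farthest being tni-3 at -1.08, and the orange points lie between -0.26 and 0.38.

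The lower level in the receptor mutant was present without octopamine and with it. The median ratio of the receptor mutant to N2 was -0.27 without octopamine, with 35 of 41 muscle genes lower, and -0.40 with it, again with 35 of 41 lower. All genes had medians of -0.05 and -0.07, with 6061 and 6117 of 10251 lower. Ranked over the 6 arrays, 21 of the 41 genes had their lowest signal on the receptor mutant array without octopamine and 16 on the one with it, arrays that held the lowest signal of 13.9% and 36.1% of all genes. The highest signal fell on the treated daf-16 array for 17 muscle genes and on the treated N2 array for 14, arrays that held the highest signal of 9.78% and 13.6% of all genes.

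Of the called genes, 4 were troponins, and tni-3 had the largest change, -1.08 ± 0.18 (SE, adjusted p = 0.0303), called in 9 of 10 alternative settings. Its receptor mutant signals, 90.5 and 58.2, lay below the 151 to 167 of the other 4 arrays. unc-27 changed by -0.71 ± 0.10 (SE, adjusted p = 0.0214) and was called in 10 of 11 settings, with 450 and 453 against 670 to 810. The setting without a call for both was limma without the trend, with adjusted p of 0.0504 and 0.0537. tnt-2 changed by -0.66 ± 0.13 (adjusted p = 0.0418, 6 of 10 settings) and pat-10 by -0.47 ± 0.09 (adjusted p = 0.0394, 5 of 10 settings). The body wall isoforms had negative fitted changes in 9 of 9 cases, with a median of -0.47 and 4 called. The pharyngeal isoforms had negative ones in 3 of 5 cases, with a median of -0.25 and 0 called, among them tni-4 at -0.59 (adjusted p = 0.0965). The difference between body wall and pharyngeal isoforms was not tested.

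The other thick filament genes were lower in the receptor mutant in 5 of 5 cases, with a median of -0.55. mlc-2 had signals of 2273 and 2685 for N2, 2095 and 2541 for daf-16 and 1695 and 1523 for the receptor mutant, a change of -0.62 ± 0.11 (SE, adjusted p = 0.0373), called in 7 of 10 settings. unc-15 had 679 and 709, 679 and 569, and 447 and 478, a change of -0.59 ± 0.11 (adjusted p = 0.0415, 6 of 11 settings). In both genes the receptor mutant arrays lay below all 4 others. mlc-3 missed the threshold (-0.55 ± 0.12, adjusted p = 0.0541). The probe set shared by mlc-1 and mlc-2 had a mean ratio of -0.73. The heavy chains had a median of -0.26 and no call, with unc-54 at -0.42 ± 0.12 (adjusted p = 0.112) and myo-3 at -0.26 ± 0.14 (adjusted p = 0.303).

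In the thin filament, lev-11 had signals of 249 and 335 for N2, 286 and 313 for daf-16 and 178 and 212 for the receptor mutant, a change of -0.58 ± 0.12 (SE, adjusted p = 0.0471), called in 4 of 10 alternative settings and -0.37 with the mean of its probe sets (adjusted p = 0.141). unc-87, the gene also called with octopamine, changed by -0.58 ± 0.12 (adjusted p = 0.0495, called in 3 of 10 settings). act-4 changed by -0.49 ± 0.10 (adjusted p = 0.0477, 3 of 11 settings), and act-3 by -0.35 ± 0.08 (adjusted p = 0.0586). The 2 probe sets that named act-1, act-2 and act-3 together had mean ratios of -0.18 and -0.36, and the one that named all 4 muscle actins -0.29. In the calcium store, csq-1 had 184 and 173 for N2, 180 and 165 for daf-16 and 127 and 86.7 for the receptor mutant, a change of -0.77 ± 0.15 (adjusted p = 0.0409, 7 of 11 settings). Its receptor mutant arrays lay below all 4 others. sca-1 and unc-68 had changes of 0.04 and -0.25 and no call. The value of sca-1 is that of its brightest probe set, and its others had mean ratios of 0.11, -0.36 and -0.62. The attachment genes had a median of -0.22, 8 of 11 negative and 0 called. unc-112 had 0.22 from its brightest probe set and -0.27 as the mean ratio of its other one.

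Of the 7 epidermal and cuticle markers 0 were called in the receptor mutant, with a median fitted change of -0.31 and values from -0.53 for col-19 to 0.0065 for nhr-23. Their summed signal was 4861 and 5501 there, against 6193 to 6472 on the other 4 arrays. Of the coelomocyte markers, 1 of 2 fell (cup-4, -1.004 ± 0.14, adjusted p = 0.0197). The intestinal markers had a median of 0.10, the neuronal ones -0.04, the germline ones -0.13, the sperm ones -0.44, the pharyngeal gland ones 0.03 and the embryonic ones -0.09, with 0 called in each. The part of these tissues in the muscle values was not tested. The hybridization controls had their lowest median signal, 272, on the receptor mutant array with octopamine, against 280 to 322 on the others.

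In daf-16 no muscle gene was called in either direction, where 0.0390% of all genes rose and 0.205% fell. At an unadjusted p under 0.05, 1 muscle gene was higher and 1 lower (2.44% each), where 2.13% of all genes were higher and 4.09% lower. Fitted changes lay between -0.26 for pat-3 and 0.38 for tni-1, with a median of 0.08 against -0.01 for all genes.

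**Figure D5:**
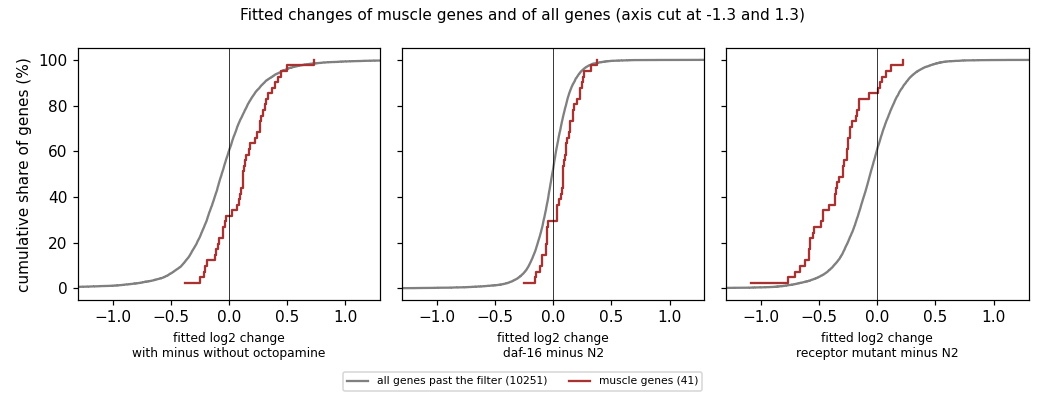
Cumulative share of genes (vertical axis, %) by fitted log2 change (horizontal axis) for the 41 muscle genes (red) and all 10251 analysed genes (grey), for octopamine, daf-16 against N2 and the receptor mutant against N2. Around the medians the red line lies right of the grey one for octopamine (0.12 and -0.06) and left of it for the receptor mutant (-0.30 and -0.06); all genes reach farther in both tails.

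Other genes of the muscle and its surroundings gave a mixed picture with octopamine. Of 21 further sarcomere and attachment genes tested, 3 rose and 0 fell: the profilin gene pfn-3, the kettin gene ketn-1, which encodes an immunoglobulin-repeat protein of the dense body, and the kinase gene unc-82. pfn-3 had signals of 126 and 300.1 for N2, 185 and 295 for daf-16 and 107 and 202 for the receptor mutant, a change of 0.95 ± 0.12 (SE, adjusted p = 0.00199). Its 3 treated arrays lay above its 3 untreated ones. ketn-1 changed by 0.59 ± 0.12 (adjusted p = 0.0110) and unc-82 by 0.47 ± 0.12 (adjusted p = 0.0301). The 3 of 21 stand beside the 7.37% of all genes that rose. The median of these 21 genes was -0.06, as was that of all genes to 2 decimals. In the receptor mutant 19 of the 21 had negative changes, as did 6268 of all 10251 genes. There 1 of the 21 fell, the calponin-like gene clik-1 (-0.69, adjusted p = 0.0488), where 2.22% of all genes fell.

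Basement membrane genes encode the matrix that muscle attaches to and which muscle and other tissues secrete. They rose with octopamine in 4 of 8 cases and fell in 0, with a median of 0.48, where 7.37% of all genes rose. The 4 were the laminin genes epi-1 (0.54, adjusted p = 0.0101) and lam-2 (0.49, adjusted p = 0.0365), the collagen IV gene let-2 (0.48, adjusted p = 0.00810) and the SPARC gene ost-1 (0.48, adjusted p = 0.0134). ost-1 had signals of 627 and 1021 for N2, 703 and 1009 for daf-16 and 710 and 819 for the receptor mutant. In the receptor mutant 0 of these 8 genes were called, and their median was -0.07.

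The dystrophin complex, which links actin to the membrane, had 2 of 7 genes that fell with octopamine, stn-1 (-0.64, adjusted p = 0.0111) and dyb-1 (-0.47, adjusted p = 0.0407), and 0 that rose. Of 10 muscle excitation genes tested, 2 fell, the calcium channel subunit gene ccb-1 (-0.64, adjusted p = 0.0131) and the potassium channel regulator gene unc-93 (-0.59, adjusted p = 0.0161), and 0 rose. These counts of 2 of 7 and 2 of 10 stand beside the 14.7% of all genes that fell. Epidermal attachment genes, which carry the force of muscle to the cuticle, had 0 of 8 called and a median of 0.14. Of 9 non-muscle actomyosin genes, the gelsolin-like gene gsnl-1 (0.50, adjusted p = 0.0194) and the filamin gene fln-1 (0.40, adjusted p = 0.0151) rose and 0 fell. Of all genes 7.37% rose. In the receptor mutant 0 genes of the dystrophin, excitation and epidermal attachment lists were called, and 1 non-muscle actomyosin gene, the profilin pfn-1, fell (-0.44, adjusted p = 0.0484).

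The marker lists of other tissues had median octopamine changes of -0.07 for intestine, 0.01 for epidermis, -0.02 for neurons, -0.05 for germline, 0.13 for pharyngeal gland, -0.03 for embryo, -0.30 for sperm (0 of 4 positive) and -0.23 for coelomocytes (1 of 2 positive). Single markers were called. Of 7 intestinal markers ifb-2 rose and cpr-6 and vha-6 fell. Of 7 epidermal ones elt-3 rose and col-19 fell, and of 7 neuronal ones egl-3 rose. All marker calls here stand beside the 7.37% of all genes that rose and the 14.7% that fell. The sperm marker spe-6 fell by 1.94 (adjusted p = 6.15e-05), and the summed signal of the 4 sperm markers was 218 and 174 for N2, 172 and 101 for daf-16 and 162 and 123 for the receptor mutant, without and with octopamine. The coelomocyte marker cup-4 fell by 0.61 (adjusted p = 0.0100). The part of these cells in the muscle results was not tested.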

How the data were processed

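RNA of 6 groups was measured, 1 array per group. The deposited table gives each probe set of each array a linear intensity, made by the authors; the summarisation, the normalization and the genome build are not given in the sources used here. Per the labels, total RNA was extracted with TRIzol, labelled with biotin and amplified from the 3′ end. Of 22625 probe sets, 77 controls were left out; 20766 of the remaining 22548 had 1 gene in the platform annotation and 887 had several and were not used for a gene. Per gene the probe set with the highest mean was taken; for 26 of the 41 muscle genes it carries a suffix (_s or _x) that marks probes matching several transcripts, and 19 genes have several bright probe sets, of which 5 have probe sets with opposite mean octopamine ratios (pat-3, sca-1, unc-52, unc-60 and unc-89) and 5 with opposite ratios of receptor mutant to N2 (pat-3, sca-1, unc-112, unc-52 and unc-89). Intensities were taken to log2 with no pseudocount and each array's median was subtracted, since medians spanned 0.127. Genes whose mean reached the 40th percentile of probe sets (signal 15.5) were kept, 10251 in all. No coordinates are printed, and the WBcel235 gene table served for gene order only.

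An additive model of strain and octopamine was fitted with limma 3.58.1 (R 4.3.3) with a mean-variance trend, tested on simulated data, with Benjamini-Hochberg adjustment over the 10251 genes and a threshold of 0.05. An octopamine response that differs between strains enters its error. Separate cultures are not named in the labels, so the spread behind a p-value is that between these 6 arrays and may be technical. The number of arrays limits the precision. In each SE and p-value limma drew the gene's own spread towards that of genes of similar signal, with 2 residual and 6.28 prior degrees of freedom. Values on all arrays are given for muscle genes past the threshold with octopamine or in a mutant and for isoforms classed as body wall or pharynx; of other lists, called genes are named, at most 4 per list and direction. Genes outside this rule (act-3, pat-2, mlc-3 and others) were added after their values were seen. The members and gene lists were chosen with earlier results of these data known. Other settings tried were 11 planned ones and 2 added after seeing the data, centring on the analysed genes and on 18 hybridization control probe sets. Summaries used pandas 2.3.3 and numpy 2.4.6 under Python 3.11.15, and figures matplotlib 3.10.9.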

Additional observations from a re-analysis of the deposited data

Results flagged for a closer look

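The alpha-actinin gene atn-1, which cross-links actin at dense bodies, had an octopamine log2 ratio of 0.33 in N2 and -0.26 in the receptor mutant, opposite directions in these strains, and a ratio near 0 in daf-16. Each value is a pair of arrays, and the difference was not tested.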

How the results depend on the processing

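Of the single-gene results under alternative settings, 819 kept their side of the threshold, 44 gained and 55 lost a call, and 0 called changes reversed; 37 values of 20 results, called in neither setting, took the other sign. The cause was not tested unless given. The muscle genes that rose with octopamine numbered 5, and 9 on deposited values, 10 after quantile normalization, 11 with centring on analysed genes, 15 with centring on hybridization controls, 1 without probe sets of a shared suffix (22 muscle genes left) and 1 to 8 with 1 strain's pair left out; 0 to 1 fell, the 1 being tni-4 without the daf-16 pair. The 10 that fell in the receptor mutant became 3 as deposited, 2 quantile normalised, 2 with centring on analysed genes, 4 without shared probe sets and 0 without the trend, and were 14 without the daf-16 pair. Of all genes 7.37% rose with octopamine. That share was 9.33% as deposited, 9.48% quantile normalised, 9.89% with centring on analysed genes and 14.3% on hybridization controls. It was 6.67% (of fewer genes) without shared probe sets and 3.14% to 8.68% with a pair left out. With octopamine 14.7% fell, and 9.79% as deposited, 8.55% quantile normalised, 6.82% on hybridization controls and 7.11% to 17.2% with a pair left out. In daf-16, 0.0390% rose and 0.205% fell, and 0.0195% and 0.0390% without the trend, 0.127% and 1.10% on hybridization controls, and 0.302% and 1.13% without the receptor pair. In the receptor mutant 0.400% rose, and 0.107% without the trend, 0.615% with centring on analysed genes, 2.04% on hybridization controls and 1.36% without the daf-16 pair. There 2.22% fell, and 1.19% as deposited, 0.888% quantile normalised, 0.741% without the trend, 1.03% with centring on analysed genes and 5.35% without the daf-16 pair. Without shared probe sets 2.53% (of fewer genes) fell. The muscle median for N2, 0.19, was 0.28 as deposited and 0.0905 without shared probe sets; for daf-16, 0.06, it was 0.18 quantile normalised and 0.28 on hybridization controls; for the receptor mutant, 0.05, it was 0.15 quantile normalised, 0.13 with centring on analysed genes and 0.26 on hybridization controls, and it reversed to -0.12 without shared probe sets. Less the median of all genes, it was 0.24 for N2, and 0.33 with a 60th percentile filter, 0.16 with a pseudocount of 16 and 0.15 without shared probe sets; 0.13 for daf-16, and 0.22 with that filter; and 0.12 for the receptor mutant, reversing to -0.046 without shared probe sets. The body wall minus pharyngeal difference was 0.48 for N2 and 0.37 for daf-16 after quantile normalization, and for the receptor mutant 0.30 with the pseudocount and 0.48 with the mean of probe sets; dropping shared probe sets or using the stricter filter left too few isoforms. The strain term of the fit already pairs the treated and untreated array of each strain.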

Other observations

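The array's own actin control probe sets, which were left out of the gene comparisons, gave at the 3′ end 4357 and 3857 without and with octopamine for N2, 4111 and 3741 for daf-16 and 3540 and 3167 for the receptor mutant. The 5′ set had 2145 and 2153, 1922 and 1868, and 2097 and 1612, and the middle set 1743 and 1618, 1662 and 1823, and 1682 and 1406. The treated receptor mutant array was the lowest of the 6 for all 3 sets.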
